A study of Mus musculus with 10 samples.

Results

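A set of 1663 chromatin regions was listed as open in mouse fibroblasts and in embryonic stem cells, the start and the goal of reprogramming, and was not listed at day 3 between them. The regions were chosen from ATAC-seq peak lists, in which each peak is a stretch of DNA that a transposase cut more often than its surroundings. Overlapping peaks of all 10 lists were merged into 208851 regions, and a list has a region if a peak overlaps it by at least 1 bp. The members have a peak in both fibroblast lists and in both stem cell lists and in neither day 3 list. They are 8.65% of the 19217 regions shared by fibroblasts and stem cells and 0.796% of all regions. Of the other shared regions, 16007 had a peak in both day 3 lists and 1547 in 1 of them. Because the rule used the fibroblast, day 3 and stem cell lists, values from those lists are descriptions and have no test. Day 6, day 9 and position were not used.

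Each of 5 stages has 2 libraries, each made from 50000 cells of a C57BL/6 x 129 background. Embryonic fibroblasts (MEF) came from a mouse of genotype OKSM Col1a1/M2rtTA ROSA26 and were kept in fibroblast medium without doxycycline. OKSM is 1 cassette that encodes OCT4, SOX2, KLF4 and MYC together, and M2rtTA is the activator that switches it on under doxycycline. Cells of this genotype were collected unsorted after 3 days (DAY3), and sorted for SSEA+ after 6 and 9 days (DAY6, DAY9), in stem cell medium with doxycycline at 1 µg/ml and ascorbic acid at 50 µg/ml. The embryonic stem cells (ESC) are 1 line, V6.5, without the cassette, unsorted and grown on irradiated feeder cells. All 10 libraries carry 1 batch name, and whether the libraries of a stage came from separate animals or cultures is not given. Sorting coincides with DAY6 and DAY9, and the shared set joins cells of different genotype. A missing peak in bulk chromatin can mean fewer open cells or less open DNA per cell, and these cannot be told apart.

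Regions open in unrelated cell types are of several kinds. Promoters of broadly used genes are open in nearly every cell, and so are many binding sites of CTCF, the factor that anchors chromatin loops. Enhancers are more often open in some cell types only, held by factors such as AP-1 and TEAD in fibroblasts or OCT4, SOX2 and ESRRB in stem cells. Early in reprogramming the introduced factors bind widely, many fibroblast enhancers lose their factors, and pluripotency enhancers open later.

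The lists differ in length and depth. They held 45766 and 45497 peaks at DAY3, the shortest, and from 58969 to 88980 at the other stages. The background pileup, the number of fragments expected over a background position, served as relative depth: it was 5.30 and 5.27 at DAY3, which lies within the range of 2.33 to 8.32 over the other 8 libraries. Summit pileups of the DAY3 libraries differed by 1.33 times the counting noise and those of the DAY9 libraries by 1.42 times, against 3.62 to 11.4 in the other stages. The DAY3 pair and the DAY9 pair were therefore counted as 1 sample apiece. As a check of identity, 12 and 10 of 12 fibroblast marker genes had a peak within 1 kb of a gene end in the MEF lists, and 9 and 8 in the ESC lists. Postn and Col3a1 had peaks in MEF lists only. Of 12 stem cell markers, 3 and 5 had one in MEF and 12 and 11 in ESC. Neither list of markers had a member within 10 kb of any of its genes. The part of feeder cells in the ESC peaks was not tested.

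The members that lie on gene starts give the DNA that can be shown, since the RefSeq table holds gene starts only. The 6 protein-coding starts in the members of highest rank are shown because they are the promoters at which both end states were most clearly open. Each line gives the 250 bases before the start, 5′ to 3′ on the strand of the gene, from RefSeq (GRCm38.p6). Capitals mark any of 12 searched words, named below.
Col5a3 promoter: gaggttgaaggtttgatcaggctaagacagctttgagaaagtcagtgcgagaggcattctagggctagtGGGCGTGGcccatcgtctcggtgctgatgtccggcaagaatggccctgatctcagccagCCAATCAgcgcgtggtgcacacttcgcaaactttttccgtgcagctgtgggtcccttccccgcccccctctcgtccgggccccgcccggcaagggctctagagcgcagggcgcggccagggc
Cyb5r2 promoter: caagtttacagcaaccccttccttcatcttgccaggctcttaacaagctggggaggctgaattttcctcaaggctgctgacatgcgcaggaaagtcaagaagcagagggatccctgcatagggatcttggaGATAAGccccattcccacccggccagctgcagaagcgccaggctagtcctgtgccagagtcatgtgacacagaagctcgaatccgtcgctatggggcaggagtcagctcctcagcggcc
Gpr37 promoter: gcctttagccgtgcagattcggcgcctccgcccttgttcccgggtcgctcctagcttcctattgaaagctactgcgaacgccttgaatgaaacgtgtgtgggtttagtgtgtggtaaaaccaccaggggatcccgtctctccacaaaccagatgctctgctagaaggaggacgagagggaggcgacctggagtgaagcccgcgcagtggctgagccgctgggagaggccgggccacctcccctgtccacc
Spata4 promoter: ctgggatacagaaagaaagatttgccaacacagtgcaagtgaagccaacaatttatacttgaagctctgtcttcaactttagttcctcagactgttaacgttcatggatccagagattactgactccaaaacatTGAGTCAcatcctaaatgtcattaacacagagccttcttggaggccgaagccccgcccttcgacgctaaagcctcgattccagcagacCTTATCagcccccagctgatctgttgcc
Arfgef3 promoter: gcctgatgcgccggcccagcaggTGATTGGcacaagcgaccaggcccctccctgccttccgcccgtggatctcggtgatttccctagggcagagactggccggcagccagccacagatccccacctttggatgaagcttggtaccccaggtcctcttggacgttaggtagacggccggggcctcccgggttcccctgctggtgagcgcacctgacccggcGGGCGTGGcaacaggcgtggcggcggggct
Vgll2 promoter: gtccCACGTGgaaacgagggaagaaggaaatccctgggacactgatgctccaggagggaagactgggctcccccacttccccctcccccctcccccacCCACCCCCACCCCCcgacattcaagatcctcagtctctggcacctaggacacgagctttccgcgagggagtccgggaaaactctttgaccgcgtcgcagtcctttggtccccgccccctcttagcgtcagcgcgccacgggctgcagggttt

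The promoter of Col5a3 (chr9:20815068-20815317, minus strand), the gene of a type V collagen chain, shows a KLF word and an NFY word. Cyb5r2 (chr7:107758033-107758282, minus strand) encodes a cytochrome b5 reductase and shows 1 GATA word. Gpr37 (chr6:25689981-25690230, minus strand), an orphan G protein-coupled receptor, has no searched word. Spata4 (chr8:54600531-54600780, plus strand), a gene of the testis, shows an AP-1 and a GATA word. Arfgef3 (chr10:18743759-18744008, minus strand) shows a KLF and an NFY word. Vgll2 (chr10:52022252-52022501, plus strand), a cofactor of TEAD proteins in muscle, shows 2 overlapping KLF words in a run of C and an E-box. Of these 6 regions, those of Cyb5r2, Gpr37, Arfgef3 and Vgll2 had a peak in all 4 DAY6 and DAY9 lists, and those of Col5a3 and Spata4 in both DAY9 lists and no DAY6 list. No searched word is in more than 3 of the 6 promoters.

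Promoters in members were poorer in CpG than promoters in shared regions with DAY3 peaks. Outside chromosome 18, whose starts were not analysed here, 150 of 1609 members (9.32%) held the start of a RefSeq gene, against 57.4% of 15560 shared regions with a peak in both DAY3 lists and 6.80% of 201821 regions in all. Over the 300 bases from 250 before to 50 after the start, the median ratio of observed to expected CpG was 0.507 for 173 starts in members, 0.801 for 11935 starts in shared regions with DAY3 peaks and 0.384 for all 32851 starts. A ratio of at least 0.6 was reached by 38.2% of the starts in members and 35.8% of all. The word TGANTCA, the site of the fibroblast-enriched AP-1 factors, was in 11.6% of the windows in members, in 3.99% of those with DAY3 peaks and in 7.81% of all. For a core word of the CTCF site the shares were 6.94%, 3.13% and 2.43%. The AP-1 and CTCF words were thus most frequent in members. The ETS, NFY, KLF and E-box words were least frequent in members and most frequent in windows with DAY3 peaks. CCGGAAGT, bound by ETS factors, was in 1.16% of the windows in members and in 8.98% of those with DAY3 peaks, against 3.89% of all. The NFY word CCAATCA was in 5.20%, 11.6% and 7.82%. The KLF word GGGNGTGG was in 16.2%, 23.8% and 17.6%, the E-box CACGTG in 6.36%, 10.8% and 7.15%, and the GATA word GATAAG in 5.20%, 4.02% and 7.44%. The remaining words were found in at most 2 windows in members: TGTGGTTT (RUNX) in 2, TGACGTCA (CRE), ATGCAAAT (octamer) and CATTCCA (TEAD) in 1 each, and the NRF1 palindrome in 0. Words were sought on both strands, the KLF word also matches runs of C, and a match is a description of the letters.

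With the lists as deposited, more members had a peak at DAY9 than at DAY6. A peak was present in 50.9% and 44.1% of them in the DAY6 libraries, a mean of 47.5 ± 4.76% (SD, n = 2), and in 63.9% and 64.2% in the DAY9 libraries. The 95% Wilson intervals, which cover counting error only, run from 48.5% to 53.3% and from 41.8% to 46.5% at DAY6, and from 61.6% to 66.2% and from 61.8% to 66.4% at DAY9. The intervals of the DAY6 libraries do not overlap, but they take regions as independent and measure no spread between samples. Both DAY6 lists had 544 members (32.7%), against 21.7% of all regions and 96.7% of the shared regions with a peak in both DAY3 lists. Both DAY9 lists had 929 (55.9%), against 30.8% and 98.4%. The members thus stood above all regions and below the shared regions that day 3 had kept, in each of the 4 libraries. With equal numbers of peaks, which leaves 261 members, the mean shares were 37.55% at DAY6 and 41.38% at DAY9. No test was made of these shares.

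**Figure D1:**
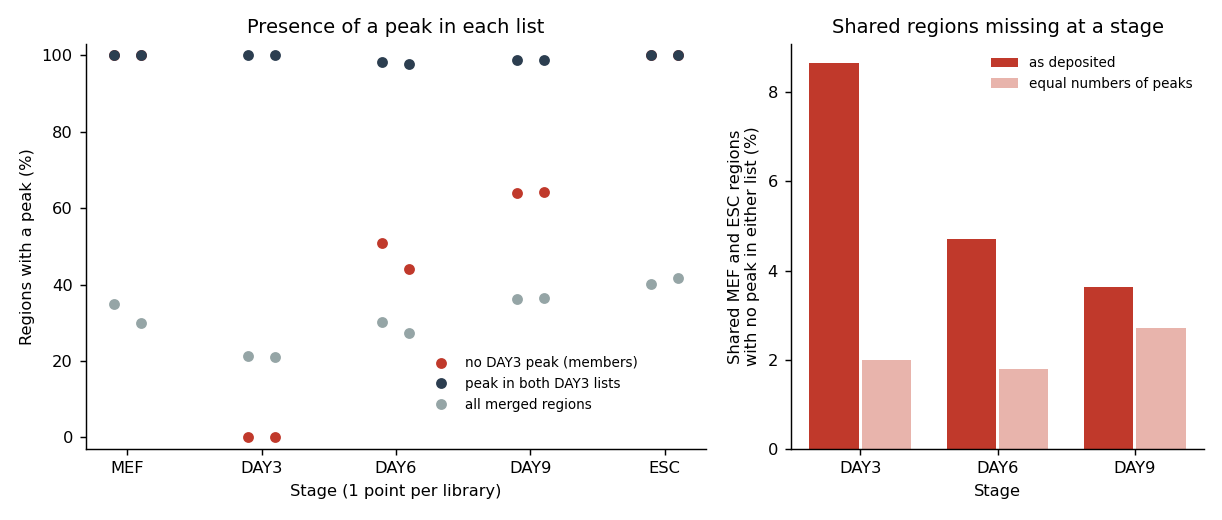
Left, the share of regions with a peak (%) in each of the 10 libraries, 1 point per library, for the 1663 members, the 16007 shared regions with a peak in both DAY3 lists and all 208851 merged regions: the members lie at 0 in DAY3 and, under the points of the second set, at 100% in MEF and ESC by the rule, at 44.1% to 50.9% in DAY6 and at 63.9% to 64.2% in DAY9. Right, the share of shared MEF and ESC regions with no peak in either list of a stage (%), with the lists as deposited and cut to equal numbers of peaks: 8.65% at DAY3 becomes 1.99%.

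The later lists divided the members. All 4 DAY6 and DAY9 lists had a peak at 476 members (28.6%), against 19.6% of all regions. None of the 4 had one at 366 (22.0%), against 51.2% of all regions and 0.2% of the shared regions with DAY3 peaks. This share was 39.08% with equal numbers of peaks and 34.39% without ESC replicate 2. Both DAY9 lists and no DAY6 list had 139 members, and both DAY6 lists and no DAY9 list had 21. Over all regions these counts were 11254 and 1997, so the first pattern was the more frequent there too. Of the 544 members in both DAY6 lists, 476 (87.5%) were also in both DAY9 lists and 21 (3.86%) in neither, against 90.2% and 4.41% of all regions in both DAY6 lists. On these shares the members were close to all regions. The remaining 661 members (39.7%) had a peak in 1 library only of at least 1 of the 2 stages, against 3.37% of the shared regions with DAY3 peaks. The libraries of a stage parted at these members, and the share over all regions is not given here.

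The lists' lengths touch this set. With the lists as deposited, 1663 shared regions had no peak at DAY3, 904 (4.70%) had none at DAY6 and 698 (3.63%) had none at DAY9. Cut to the best 45497 peaks each, the lists shared 13135 regions, of which 261 (1.99%) had no DAY3 peak, 236 (1.80%) no DAY6 peak and 355 (2.70%) no DAY9 peak. So DAY3 had the most missing regions with the lists as deposited, and DAY9 had the most with lists of equal length. Of the 261, 260 overlap a member of the full lists, which is 15.6% of the members. Leaving out MEF replicate 2, so that 1 MEF list sufficed, gave 4062 members, and leaving out MEF replicate 1 gave 2318. Why these counts differ was not tested.

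Members ranked below the shared regions that had DAY3 peaks. Ranked by −log10 p within its own list, with 100 for the strongest peak, the median member stood at 49.1 and 35.9 in the MEF lists and at 47.6 and 49.8 in the ESC lists. Shared regions with a peak in both DAY3 lists had medians of 84.5 and 80.7 in MEF and 83.9 in each ESC list. Over all regions with a peak in the list the medians were 50.6 in each MEF list and 50.2 and 50.6 in the ESC lists. Members were thus near the middle of MEF replicate 1 and of both ESC lists, and below it in MEF replicate 2. At DAY6 and DAY9, where listed, the members' medians were 35.9 and 32.3, and 40.5 and 40.4. The rank of members was thus lower at these stages than in MEF replicate 1 and in both ESC lists. In fold over local background, the authors' own value, the members' medians were 5.43 and 3.22 in MEF, 4.49 and 4.51 at DAY6, 3.89 and 3.94 at DAY9, and 5.03 and 4.34 in ESC.

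**Figure D2:**
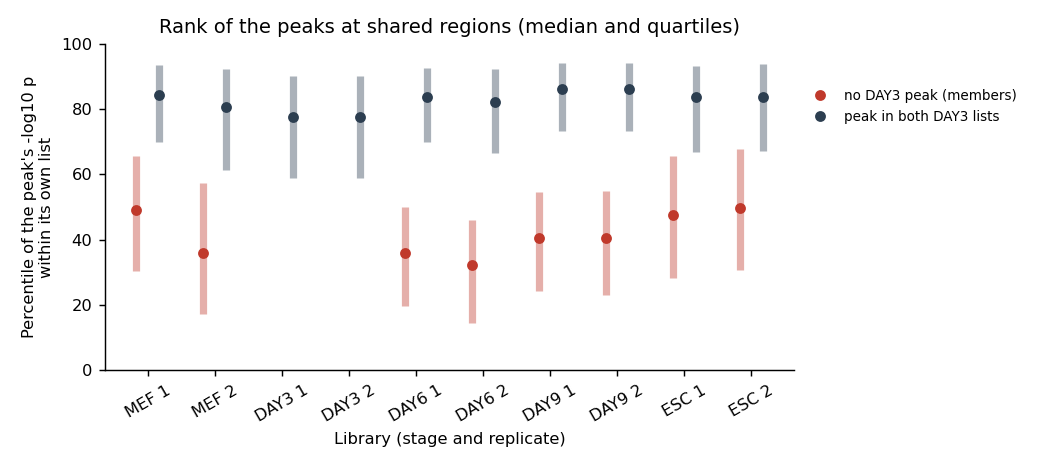
The percentile of a region's best peak within its own list (vertical axis, 100 is the strongest) in each library, as the median (point) and the quartiles (bar), for members and for shared regions with a peak in both DAY3 lists. Members have no DAY3 value; their medians lie between 32.3 and 49.8, and those of the other set between 77.5 and 86.3.

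The lower the rank, the larger was the share missing at day 3. Where the lowest percentile over the 2 MEF and 2 ESC lists was at most 10, 31.6% of 1345 shared regions were members, and where it was above 60, 0.573% of 9948 were. The median of this lowest percentile was 18.3 in members, 24.8 in the shared regions with a peak in 1 DAY3 list and 70.1 in those with a peak in both. Over the background of the DAY3 libraries the smallest fold that reaches the lists' p-value limit is 3.01 and 3.03. In all 4 MEF and ESC lists 870 members (52.3%) had a fold above 3.03, and 99 (5.95%) had one above 4.49, the higher of the 2 medians of all DAY3 peaks. The same smallest fold is 3.40 in MEF replicate 1 and 3.35 in ESC replicate 1, so 3.03 bears mainly on replicate 2 of each. Where the local background differs, listed DAY3 folds can be lower, down to 1.51 in shared regions with a peak in 1 DAY3 list. These counts were not made for other shared regions.

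The later difference from shared regions with DAY3 peaks was present in every bin of rank, but ranks were not matched within a bin. Above a lowest percentile of 60, 4 of 57 members and 5921 of 9948 shared regions were above 80. The 2 sets were also chosen by their DAY3 peaks, and whether rank accounts for the difference was not tested. Within each of 6 bins of rank, 40.4% to 54.8% of members had a peak in a DAY6 library and 61.6% to 68.4% in a DAY9 library. For shared regions with DAY3 peaks in the same bins the shares were 87.3% to 99.8% and 94.0% to 99.9%. At DAY6 the members' shares were 48.2% and 43.3% in the weakest bin and 54.4% and 40.4% in the strongest, which holds 57 members.

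**Figure D3:**
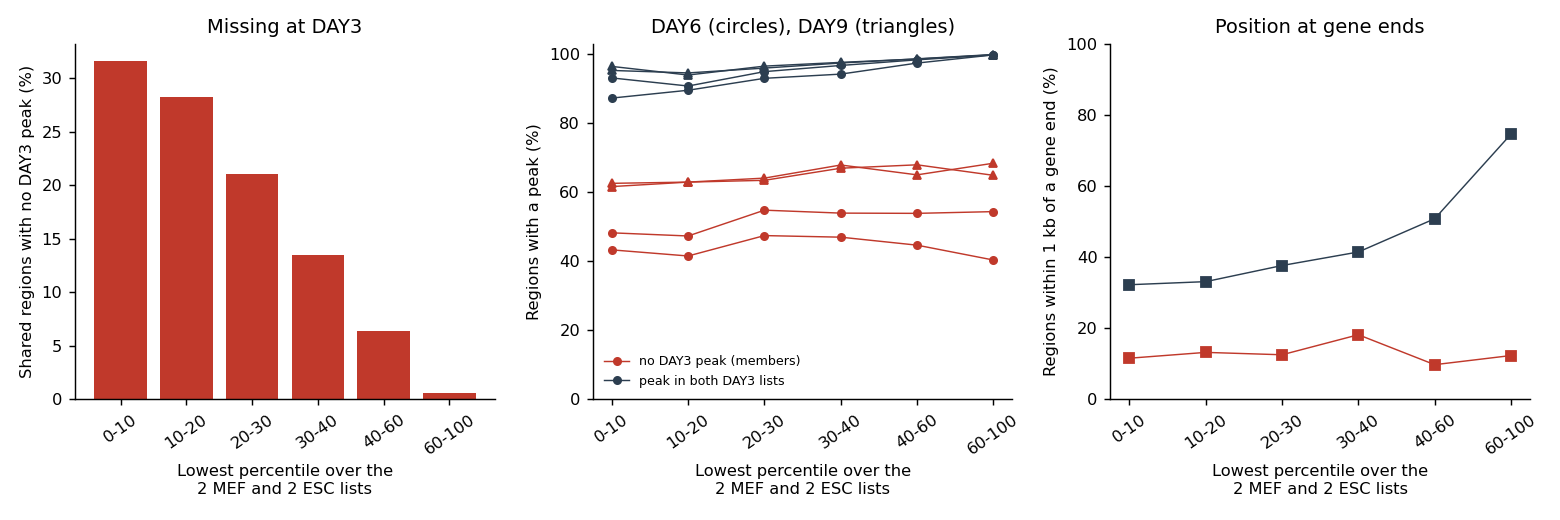
Shared MEF and ESC regions in 6 bins of their lowest percentile over the 2 MEF and 2 ESC lists (horizontal axis). Left, the share with no DAY3 peak (%), which falls from 31.6% to 0.573%; middle, the share with a peak in each DAY6 and DAY9 library (%), 1 line per library; right, the share within 1 kb of a gene end (%), 9.71% to 18.1% for members and 32.2% to 74.6% for regions with a peak in both DAY3 lists.

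Of the 10 members of highest rank, 8 lay more than 1 kb from a gene end. The first by the lowest of its 4 percentiles, 87.4, lay at chr10:12878471-12879174, 8.58 kb from Utrn, which encodes utrophin, a relative of dystrophin. Its fold was 11.6 and 7.38 in MEF, 5.16 at DAY6 replicate 1, 3.58 at DAY9 replicate 2, and 11.2 and 9.57 in ESC, with no peak in the other 4 libraries. Day 6 and day 9 were each split here, and both listed values lie below all MEF and ESC values. The second, at chr12:103564481-103565569 inside Ppp4r4, a regulatory subunit of protein phosphatase 4, was in all 4 later lists. Its fold was 11.3 and 6.87 in MEF, 7.85 and 8.93 at DAY6, 10.8 and 9.81 at DAY9, and 11.2 and 9.36 in ESC. The later values lie inside the range of the end states. A member inside Rell1 (chr5:63953060-63954100), of the TNF receptor family, was in 1 list between the end states. Its fold was 13.7 and 9.32 in MEF, 3.01 at DAY6 replicate 1, and 8.36 and 9.46 in ESC. A member inside Usp46 (chr5:74050737-74052299), a deubiquitinase, had a fold of 10.5 and 8.47 in MEF, 3.36 at DAY9 replicate 1, and 12.6 and 8.36 in ESC. These 4 are the members with a lowest percentile above 80, among 5921 shared regions above it.

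The next 6 by rank were in both DAY9 lists. A member 9.16 kb from Cth, which makes cysteine from cystathionine, was in all 4 later lists (chr3:157934237-157934884), with a fold of 3.37 and 3.91 at DAY6 and 2.88 and 2.99 at DAY9, against 9.13 and 6.44 in MEF and 7.19 and 4.24 in ESC. The Col5a3 member (chr9:20814772-20815395), whose promoter is printed above, had a fold of 6.66 and 4.61 in MEF, 2.76 and 4.18 at DAY9, and 11.6 and 8.01 in ESC. No DAY6 list had it. The member 0.854 kb from Tuba1b, an alpha-tubulin gene (chr15:98935244-98935782), had a fold of 5.79 and 4.89 in MEF, 3.14 and 2.65 at DAY6, 2.54 and 2.34 at DAY9, and 6.70 and 5.87 in ESC. A DAY3 peak lay 329 bp away, so a neighbouring element was open at day 3. A member 630 kb from Auts2 (chr5:133172967-133173765) had a fold of 9.29 and 5.58 in MEF, 6.96 at DAY6 replicate 1, 5.28 and 5.02 at DAY9, and 15.4 and 7.28 in ESC. One 6.00 kb from Gip, the gene of an incretin hormone (chr11:96017743-96018536), was in both DAY9 lists and no DAY6 list, with a fold of 6.60 and 4.18, against 16.6 and 5.36 in MEF and 11.7 and 7.93 in ESC. One inside Celf5, an RNA-binding protein (chr10:81464311-81465848), was in all 4, with a fold from 5.67 to 7.01 against 8.45 and 4.96 in MEF and 11.6 and 6.84 in ESC. The later folds at Cth lay below every end-state value, and those at Celf5 lay among them.

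Among members with no peak until ESC, the strongest lay 47.9 kb from Hmgn3, a nucleosome-binding protein (chr9:83061242-83062026). Its fold was 9.51 and 5.26 in MEF and 16.9 and 8.95 in ESC. Next came members inside Ccser2 (chr14:36892784-36893402), with 11.0 and 8.22 in MEF and 9.79 and 6.13 in ESC, and inside Ncoa7 (chr10:30729136-30730404), a nuclear receptor coactivator, with 12.5 and 8.05 in MEF and 5.89 and 6.95 in ESC. In these 3 regions 6 lists in a row of the time course were empty between end states of more than 5-fold enrichment. The third member listed from DAY9 on lay 23.6 kb from Mrps23, a mitochondrial ribosomal protein (chr11:88235088-88236111), with a fold of 2.64 and 3.11 at DAY9 against 8.62 and 5.65 in MEF and 10.3 and 6.35 in ESC. The 21 members listed at DAY6 and not at DAY9 were led by regions 147 kb from Tox3 and inside Fnip2 and Proser2, whose DAY6 folds lay between 3.09 and 4.21.

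The balance of the end states went with the later state. By mean percentile, 739 members ranked higher in MEF and 924 higher in ESC. Among the 399 members that ranked over 25 points higher in ESC, 62.7% and 56.1% had a DAY6 peak and 77.7% and 77.2% a DAY9 peak. Among the 251 that ranked over 25 points higher in MEF, 32.3% and 33.5% had one at DAY6 and 41.8% and 41.4% at DAY9. The share was lower from each of the 4 bins to the next in every DAY6 and DAY9 library. No peak in any of the 4 later lists was found at 13.8% of the first group and 39.4% of the last. Members leaning to ESC were thus listed more often before the stem cell stage than members leaning to MEF. In shared regions with DAY3 peaks the same bins gave 99.4% and 99.7% at DAY9 for the ESC side and 92.1% and 91.5% for the MEF side.

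**Figure D4:**
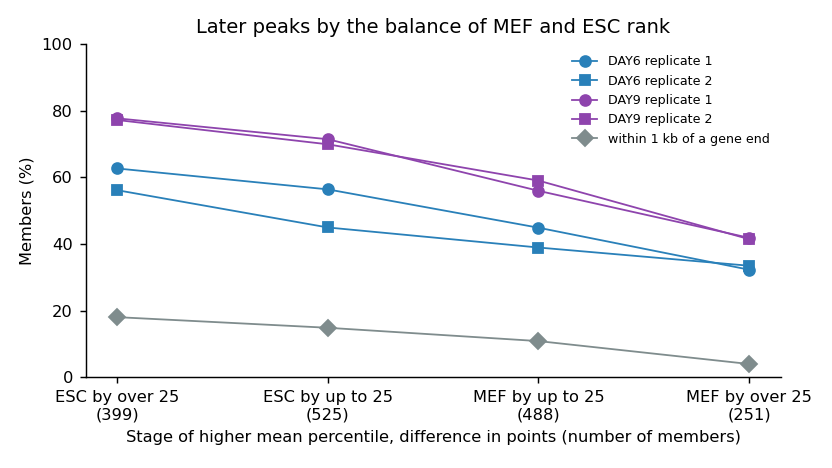
Members in 4 bins of the mean percentile in the 2 MEF lists minus that in the 2 ESC lists (horizontal axis, with the number of members in brackets), and the share (%) with a peak in each DAY6 and DAY9 library or within 1 kb of a gene end. At DAY9 the share falls from 77.7% and 77.2% on the ESC side to 41.8% and 41.4% on the MEF side.

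The extremes of this balance followed the pattern on the ESC side and only in part on the MEF side. The member most tilted to ESC, inside Clybl, a mitochondrial lyase gene (chr14:122255299-122256605), had a fold of 3.40 and 2.57 in MEF, 5.19 and 5.46 at DAY6, 7.13 and 8.35 at DAY9, and 12.7 and 7.37 in ESC. All 4 later values lie above both MEF values. A member 22.1 kb from Gnas, the gene of the stimulatory G protein subunit (chr2:174261256-174262171), had 3.16 and 2.65 in MEF, 3.09 and 4.62 at DAY6, 4.46 and 4.53 at DAY9, and 12.9 and 8.47 in ESC. The third, within 0.047 kb of an end of Crispld1 (chr1:17727076-17727957), had 3.40 and 2.57 in MEF and 11.9 and 10.1 in ESC and was in all 4 later lists. On the other side, a member inside Ptprt, a receptor tyrosine phosphatase (chr2:162282502-162283424), had a fold of 17.9 and 11.0 in MEF, 4.96 and 7.82 at DAY6, 2.76 and 3.22 at DAY9, and 3.35 and 3.10 in ESC. It was listed at DAY6 although DAY3 had no peak. A member 173 kb from Eya1, a cofactor of organ development (chr1:14484184-14485034), had 17.2 and 11.7 in MEF and 4.02 and 3.10 in ESC, and none between. The third, inside Aspm, a spindle protein gene (chr1:139481077-139481826), lay 411 bp from a DAY3 peak.

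Members lay near gene ends somewhat more often than all regions did, and much less often than the shared regions with DAY3 peaks. The median width of members, 736 bp, was above that of all regions, 509 bp, and the part of width in this was not tested. A total of 213 members (12.8%) lay within 1 kb of a protein-coding gene end, either its start or its stop, against 10.1% of all regions and 62.5% of shared regions with DAY3 peaks. With gene ends moved by 10 kb the members' share was 8.78% and that of all regions 5.36%. A further 727 members (43.7%) lay inside a gene, 221 (13.3%) outside and up to 10 kb away, 395 (23.8%) at 10 to 100 kb and 107 (6.43%) beyond 100 kb. Over all regions these shares were 42.7%, 9.78%, 22.2% and 15.2%. Exons and introns were not told apart here. The share of members over 100 kb from a gene was below that of all regions and above the 2.77% of the kept shared regions.

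**Figure D5:**
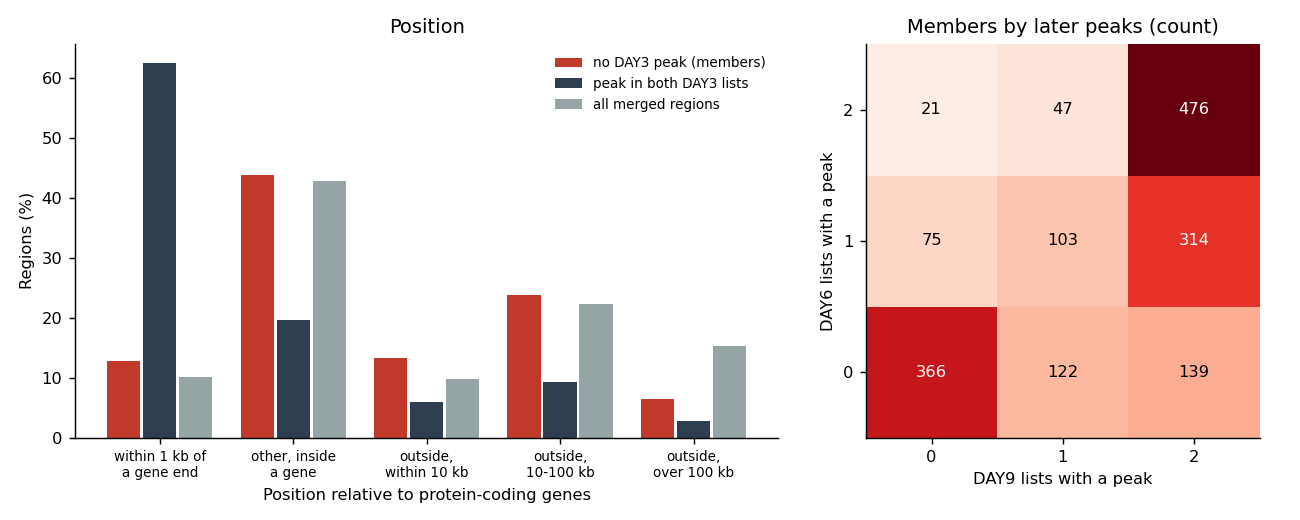
Left, the share of regions (%) in 5 classes of position relative to protein-coding genes, for members, for shared regions with a peak in both DAY3 lists and for all merged regions: 12.8%, 62.5% and 10.1% lie within 1 kb of a gene end. Right, the number of members by how many DAY6 and how many DAY9 lists had a peak: 476 were in all 4 and 366 in none.

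The contrast at gene ends was present within bins of rank and of width, although neither was matched within a bin. Members were narrower, with a median of 736 bp against 1145 bp for shared regions with DAY3 peaks. In the widest class, above 1400 bp, 30.1% of 136 members and 73.6% of the other regions lay near a gene end, and in the narrowest, up to 600 bp, 8.01% of 512 and 13.5%. Within bins of rank the shares were 9.71% to 18.1% for members and 32.2% to 74.6% for the others. Position also went with the later state, both in members and in shared regions with DAY3 peaks. Of the latter, 64.3% of the 15359 in all 4 later lists lay near a gene end, and 15.6% of the 32 in none of them. Members in all 4 later lists lay near a gene end in 98 of 476 cases (20.6%), and members in none of them in 17 of 366 (4.64%). Gene starts showed the same order, with 15.0% of 459 and 3.90% of 359 outside chromosome 18. The promoters in the first group had a median CpG ratio of 0.608 over 83 starts, those in the second 0.300 over 15.

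The median distance of members to a gene end was 14.4 kb, against 24.8 kb over all regions and 0 kb for shared regions with DAY3 peaks. Their median distance to the nearest other member was 311 kb, and 233 (14.0%) lay within 50 kb of another. The nearest DAY3 peak was a median of 10207 bp away, and 53 members lay within 500 bp of one. A DAY3 peak close by was thus the exception. Base pairs under a peak of all 4 MEF and ESC lists were present in 1538 members (92.5%), and in the other members those 4 lists have no common base pair. Of the 3482 peaks that DAY6 and DAY9 lists had in the 1538, 3385 (97.2%) touched those common base pairs by at least 1 bp.

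No gene held more than 3 members within 10 kb, and 3 genes held 3. At Spp1, which encodes the secreted matrix protein osteopontin, the member over the start (chr5:104433979-104435398) had a fold of 6.34 and 2.90 in MEF, 5.11 at DAY6 replicate 2, 6.12 and 3.70 at DAY9, and 10.8 and 10.2 in ESC. Both other members at Spp1 had no DAY9 peak. The Spp1 start was thus higher in both ESC lists than in any other library. At Elmo1, an activator of Rac in cell engulfment, the member at chr13:20115146-20116631 had 9.29 and 6.73 in MEF, 4.44 at DAY6 replicate 1, 3.48 and 4.30 at DAY9, and 8.83 and 4.49 in ESC. At Nav1, a microtubule-binding protein, 1 of 3 members (chr1:135637456-135638112) was in both DAY6 lists and the other two were in no later list. Of the 95 genes with at least 2 members, the first 5 with exactly 2 in alphabetical order were Acacb (acetyl-CoA carboxylase), Actn2 (a muscle actinin), Acvr1b (an activin receptor), Adgre5 (an adhesion receptor) and Ahrr (a repressor of the aryl hydrocarbon receptor). One Acacb member was in all 4 later lists, with a fold from 3.37 to 4.92, and so was an Acvr1b member 9.28 kb from the gene, with a fold of 9.10 and 8.84 at DAY9.

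Lists of genes with known roles were then read for members in the gene or within 10 kb, a state that holds for 6.15% of 21887 protein-coding genes. The share depends on gene length, from 2.85% of genes up to 10 kb long to 15.9% of genes above 100 kb, so counts are set beside the median length. Of 12 genes of the TEAD and YAP pathway, which reads cell spreading and tension, 4 had a member (median length of the list 27.2 kb). These were the coactivators Yap1 and Wwtr1, the DNA-binding partner Tead1 and the kinase Lats1, although the Lats1 member overlaps Nup43 and Pcmt1. They are 72.6, 120.3, 227.4 and 35.3 kb long, in classes of length in which 7.96% (30 to 100 kb) and 15.9% (above 100 kb) of genes have a member. The member inside Yap1 (chr9:7952666-7953519) had a fold of 3.45 and 3.86 in MEF, 3.73 at DAY6 replicate 1, 2.63 at DAY9 replicate 2, and 8.17 and 2.88 in ESC. The member inside Tead1 (chr7:112699679-112700511) had 4.39 and 3.78 in MEF, 4.51 at DAY6 replicate 1, 6.48 and 4.06 at DAY9, and 3.56 and 4.34 in ESC. The member 6.70 kb from Wwtr1 (chr3:57448433-57448948) was in both DAY6 lists and in DAY9 replicate 1. All 4 had a peak in at least 1 library of each later stage. Among all members 62.3% had one in at least 1 DAY6 library and 72.2% in at least 1 DAY9 library, so this is frequent.

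Of 18 Wnt pathway genes (median length 54.0 kb), 3 had a member: the receptor Fzd7, the coreceptor Lrp5 and the kinase Gsk3b, whose member lies at Nr1i2. The Fzd7 member, 0.615 kb from the gene (chr1:59487570-59488090), was the sole one within 1 kb of an end of a listed gene, its fold was 3.40 and 3.38 in MEF and 3.80 and 2.99 in ESC, and no later list had it. Of 15 TGF-beta genes (69.0 kb), the binding protein Ltbp2 and the signal transducer Smad4 had 1 member each. Among the cytoskeleton and adhesion genes (66.6 kb), the actin-bundling Palld had a member inside the gene (chr8:61894002-61894489). Its fold was 4.30 and 2.68 in MEF, 4.27 and 4.51 at DAY6, and 4.91 and 5.42 in ESC, with no DAY9 peak. These lists hold long genes, for which a member is more frequent.

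Of 25 fibroblast genes (27.9 kb), 2 had a member (8%, against 6.15% of all genes), the matrix protein Sparc and the collagen cross-linker Loxl1. The Sparc member, 1.19 kb from the gene (chr11:55392390-55392970), had a fold of 6.69 and 2.90 in MEF, 6.74 at DAY6 replicate 1, 6.00 and 6.31 at DAY9, and 8.13 and 7.81 in ESC. At this region both ESC values were above those of every other library. Sparc also has 4 shared regions with a peak in both DAY3 lists in the gene or within 10 kb. Of 25 pluripotency genes (7.15 kb), 2 (8%) had a member, and it is 1 region between Dppa2 and Dppa4 (chr16:48303130-48304402). Its fold was 4.76 and 3.00 in MEF and 5.38 and 10.0 in ESC, no later list had it, and the nearest DAY3 peak lay 130977 bp away. Of 15 epithelial genes, the tight junction gene Cldn4 had 1 member, which lies nearer to Mettl27.

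Single members also lay at the cyclin Ccnd2 (1 of 16 cell cycle genes), the FGF feedback gene Spred2 (1 of 17), the maintenance methyltransferase Dnmt1 (1 of 20 chromatin genes) and Rps14 (1 of 20 ribosomal protein genes). The Dnmt1 member, inside the gene (chr9:20943362-20944382), was in every list but those of DAY3, with a fold of 5.95 and 3.97 in MEF, 5.16 and 3.61 at DAY6, 7.13 and 7.72 at DAY9, and 6.83 and 5.42 in ESC. The Ccnd2 member (chr6:127147719-127148128) had a fold from 2.60 to 3.65 in the 4 later lists. None of the 14 AP-1 genes (median length 7.83 kb) and none of the 14 Hox genes (3.56 kb) had a member. Of all genes up to 10 kb long, 2.85% had one, so lists of this size would seldom hold any. All 14 AP-1 genes and 7 Hox genes (50%) had a shared region with a peak in both DAY3 lists, against 63.6% of all protein-coding genes.

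The rule is a matter of presence, and the regions next to it show its edge. The 1547 shared regions with a peak in 1 DAY3 list had a median DAY3 fold of 3.35 and a median DAY3 percentile of 23.5. The 3 with the lowest DAY3 score lay 3.61 kb from Uck2, over an end of Nmb and 0.444 kb from an end of Phlpp1, where the DAY3 fold was 2.69, 2.49 and 1.96. Just inside the rule, the 53 members within 500 bp of a DAY3 peak include those of Tuba1b and Aspm.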

How the data were processed

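The authors deposited 1 peak list per library, with a score, a fold (a linear ratio of the peak to its local background), and −log10 p- and q-values; the deposited score is 10 times the −log10 p-value, rounded down, in nearly all peaks, and no −log10 p-value is under 5. Bowtie2 2.3.2, deepTools 2.3.6, MACS2 2.1.1 and the build mm10 are named in the submitters' processing notes; their parameters, and the handling of duplicates and of the transposase offset, are not given in the sources used here. Lists are per library, not pooled, and hold no summit position.

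Peaks were merged in Python 3.11.15 (pandas 2.3.3, scipy 1.17.1). Ranks are percentiles of −log10 p within a list, and the best peak of a region stands for it. Summit and background pileups were recovered from fold and −log10 p (at most 300, tolerance 0.01). Genes and starts are from RefSeq GRCm38.p6, the same assembly as mm10. Region calls were tested on simulated lists. No result has a p-value. Depth in reads is unknown. The 12 words were sought in promoter windows only. Older names Cyr61 and Ctgf leave 12 genes in the TEAD and YAP list. The members, gene lists and alternatives were chosen with earlier results of these data known. Named members follow fixed rules: the 10 of highest lowest percentile, the 3 highest in each of 4 later states, the 3 most tilted to MEF and to ESC, the 8 genes with most members, listed genes within 1 kb, and 3 regions just outside the rule; listed genes within 10 kb and the printed promoters were added after their values were seen. The replicate numbers were not used to pair libraries. Some results on the listed cytoskeleton and adhesion genes are not reported here.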

Additional observations from a re-analysis of the deposited data

How the results depend on the processing

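Peak presence depends on list length and on how many lists must agree. With equal numbers of peaks there were 261 members (1.99% of the shared regions), of which 37.55% had a DAY6 peak, 41.38% a DAY9 peak and 39.08% neither. With the top 50% of each list there were 664 members (5.713%), of which 60.17% had a DAY9 peak, 26.05% had no later peak and 24.4% lay near a gene end. Where peaks had to cover at least 50% of a region, 18.72% of the members lay near a gene end. Within 2500 bp of a gene end lay 18.58%, and with gene ends moved by 10 kb 8.779%. Requiring base pairs common to all 4 MEF and ESC lists, an alternative chosen after seeing the data, 8.003% of the shared regions were members. The other 18 values moved by less than their spread (1.5 times for the count).

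Leaving out each library in turn gave 1661 to 4062 members (8.638% to 16.71% of the shared regions), the highest without MEF replicate 2. The share with a DAY6 peak ranged from 37.28% to 57.31%, that with a DAY9 peak from 52.04% to 71.42%, that with no later peak from 16.46% (without DAY3 replicate 1) to 34.39% (without ESC replicate 2), and that near a gene end from 10.88% to 15.68%. The cause was not tested. No paired analysis was possible because every result is a count or share of regions from no test. With no genome sequence used here, words were sought in promoters only.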

Other observations

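Genes of transfer RNAs, which are short and transcribed in every cell, were among the members. The start coordinate of a tRNA gene lay in 17 members (1.02%), in 0.868% of the shared regions with a peak in both DAY3 lists and in 0.104% of all regions. Start coordinates of long non-coding RNA genes lay in 41 members (2.47%), against 5.02% and 1.04%. Those of miRNA genes lay in 2 members (0.120%), against 0.487% and 0.0910%.

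Chromosomes took unequal shares. On chromosome X 17 of 457 shared regions (3.72%) were members, and on chromosomes 4, 7, 11, 15 and 19 the shares were 6.03%, 6.97%, 6.88%, 6.47% and 6.95%. The highest shares over more than 100 shared regions were 10.6% on chromosome 10, 10.5% on chromosome 12 and 10.4% on chromosome 1.

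Shared regions missing at day 6 or day 9 were largely the members. Of the 904 with no DAY6 peak 627 (69.4%) were members, and of the 698 with no DAY9 peak 462 (66.2%) were.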
